A study of Homo sapiens with 18 samples.

Results

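Retinoid metabolism and the NR2F receptors were followed through 9 genes, NR2F1, NR2F2, CYP26A1, RARA, RARB, DHRS3, STRA6, CRABP1 and CRABP2, in the human embryonic stem cell line H1. A gene was read from probe sets whose annotation names its symbol and no other, and the probe set with the highest mean stood for it. Of the 9 genes, 6 had such a probe set, out of 18417 genes read in this way. These were CYP26A1, DHRS3, STRA6, CRABP2, RARB and NR2F1, and all of these except RARB also passed the filter on low values that left 14209 genes for testing. RARA has only a probe set shared with BCOR, and no listed probe set carries NR2F2 or CRABP1, so these 3 genes were not analysed here.

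The study used 18 Affymetrix Human Gene 1.0 ST arrays in 6 groups of 3. The groups were H1 cells made into embryoid bodies for 6 days, each of them after a lentivirus with an shRNA against KBTBD8, after a lentivirus with a control shRNA, or without virus, and pluripotent H1 cells with the same 3 treatments. Embryoid bodies were grown in AggreWell plates and APEL medium, and pluripotent cells on Matrigel in mTeSR1, so medium and culture form change together with the state. All arrays come from 1 cell line, and the shRNA sequences, the promoter that drives them and the share of cells transduced are not given in the sources used here. The samples are called independent without a statement that they were separate cultures, so p-values measure the spread between arrays, which may be technical. In RNA from whole cultures, fewer cells of a type and less RNA per cell cannot be told apart.

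Retinoic acid is made from retinol in steps of oxidation, acts through nuclear receptors of the RAR and RXR families, and is removed by enzymes of the CYP26 family. STRA6 is the membrane receptor that takes up retinol from its carrier in blood, CRABP2 is a cytoplasmic protein that carries retinoic acid to the nucleus, and DHRS3 reduces retinal back to retinol and so holds back retinoic acid synthesis. In embryos a gradient of retinoic acid patterns the hindbrain and trunk, CYP26 enzymes protect the anterior end, and the orphan nuclear receptor NR2F1 acts in neural crest and in the forming forebrain.

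CYP26A1 and RARB are textbook direct targets of retinoic acid, through paired half-sites that RAR and RXR bind. RefSeq promoter windows on GRCh38.p14, from 250 bases before to 50 bases after each start, were searched on both strands for direct repeats with 1, 2 or 5 bases between the half-sites. Each half-site could be the consensus form AGGTCA, the variant form GGGTCA, the variant form AGTTCA or the variant form GGTTCA. A repeat with 5 bases between was present in 2 of 23 windows of the 9 genes, against 31 of 35116 windows in all (0.0883%). Neither repeat with the shorter spacing was in a window of these genes, and none of the 3 spacings occurred in 57 windows of other retinoid genes. Because both genes are known targets through such half-sites, their repeats among the 23 windows are a description and not a test. The stretches that hold the repeats are shown with capitals on the half-sites. That of RARB is at chr3:25428204-25428233, plus strand, and the repeat spans 53 to 37 bases upstream of the start. That of CYP26A1 is at chr10:93073797-93073826, plus strand, and the repeat, which reads as AGTTCA on the other strand, spans 90 to 74 bases upstream.
RARB: gggtagGGTTCAccgaaAGTTCActcgcat
CYP26A1: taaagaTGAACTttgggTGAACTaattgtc
A match of letters is a description and was not tested for binding.

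Both KBTBD8 shRNA arrays numbered 2 went against their labels. Over all genes the array labelled pluripotent correlated at 0.9897 with the embryoid bodies of the same shRNA and at 0.9083 with its own group, and the array labelled embryoid bodies at 0.9929 with pluripotent cells and at 0.9144 with its own group. Each of the other 16 arrays was nearest to its own group. All 6 measured genes of the set lay nearer the other state on both of these arrays. The array labelled embryoid bodies read 5.92 for CYP26A1, 7.92 for DHRS3, 6.81 for STRA6, 7.39 for CRABP2, 4.40 for RARB and 6.0 for NR2F1 on the log2 intensity scale. The array labelled pluripotent read 7.54 for CYP26A1, 6.51 for DHRS3, 7.24 for STRA6, 10.25 for CRABP2, 4.72 for RARB and 6.77 for NR2F1. They were therefore read apart, and no label was changed. The values that follow come from the other 16 arrays, with 2 in each KBTBD8 shRNA group, and values with all 18 arrays as labelled are given for comparisons of this shRNA, for other pathway genes as counts of calls.

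The level of KBTBD8 tested the labels of the shRNA. In pluripotent cells KBTBD8 read 5.13 and 4.96 on the log2 intensity scale with its shRNA, 6.39, 7.09 and 7.03 with the control shRNA, and 6.5, 6.43 and 6.03 without virus. It was lower with its shRNA by a log2 difference of -1.79 ± 0.26 (SE) against the control shRNA (limma, adjusted p 0.00028), and by -1.96 ± 0.25 with all 18 arrays as labelled (adjusted p 0.00086). The array that this fit adds to the KBTBD8 shRNA pluripotent group read 4.55 and lay nearest the embryoid bodies over all genes. Embryoid bodies were low in KBTBD8 with or without its shRNA, so the value of -1.96 adds no check of the labels. In embryoid bodies KBTBD8 was low with every treatment, at 4.86 and 4.66 with its shRNA, 4.43, 4.79 and 5.04 with the control shRNA, and 4.54, 5.06 and 4.07 without virus. There the difference between the shRNAs was 0.01 ± 0.26 (limma adjusted p 1.0), or 0.12 ± 0.25 with all 18 arrays (adjusted p 0.88), so the knockdown cannot be read from the embryoid body arrays.

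**Figure D1:**
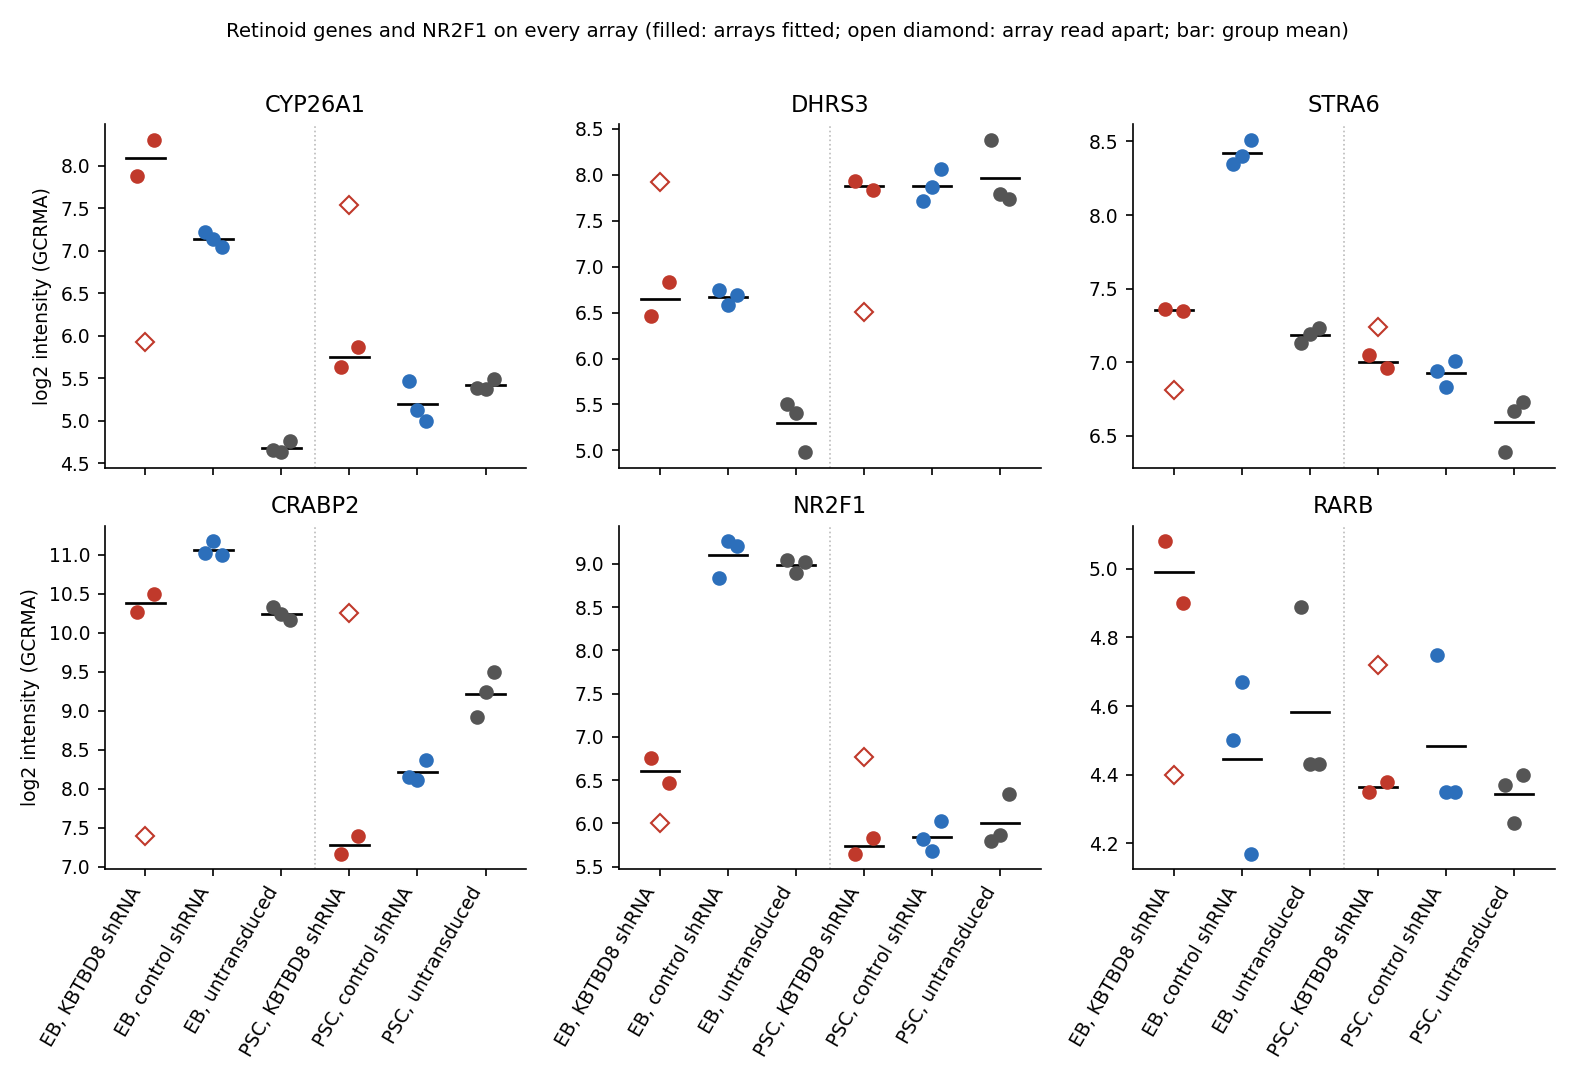
Log2 intensity of the 6 measured genes on every array, by group (EB: embryoid bodies, PSC: pluripotent cells; bar: mean of the arrays fitted; open diamond: KBTBD8 shRNA array numbered 2). Each panel has its own scale that does not start at 0; NR2F1 lies at 8.84 to 9.26 in control shRNA embryoid bodies and at 6.46 and 6.75 with the KBTBD8 shRNA, and every diamond lies nearer the other state.

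CYP26A1, the main enzyme that oxidises retinoic acid for clearance, changed in opposite directions during differentiation with and without virus. In embryoid bodies its log2 intensity was 7.88 and 8.30 with the KBTBD8 shRNA, 7.22, 7.14 and 7.04 with the control shRNA, and 4.66, 4.63 and 4.76 without virus. In pluripotent cells it was 5.63 and 5.87 with the KBTBD8 shRNA, 5.47, 5.13 and 5.0 with the control shRNA, and 5.39, 5.37 and 5.49 without virus. The virus-treated embryoid bodies stood above every pluripotent array fitted and the untransduced embryoid bodies below every one, with no overlap. On the untransduced embryoid body arrays the signal was at the 28.7 to 31.6 percentile of the array, and on the control shRNA pluripotent arrays at the 33.3 to 38.9 percentile. Both lie under the 40th percentile used as the filter on low values, so differences against these groups are given without a fold.

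Embryoid bodies exceeded pluripotent cells in CYP26A1 by 2.34 ± 0.15 with the KBTBD8 shRNA (5.08-fold, limma adjusted p 6e-09) and by 1.93 ± 0.12 with the control shRNA (adjusted p 3.1e-09). Without virus CYP26A1 fell by 0.73 ± 0.12 (adjusted p 0.00011). The change with the control shRNA differed from that without virus by 2.66 ± 0.17 (adjusted p 3.4e-08). The change with the KBTBD8 shRNA was not shown to differ from that with the control shRNA (0.41 ± 0.19, adjusted p 0.21), and this difference turned to -0.91 with all 18 arrays as labelled (adjusted p 0.51).

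DHRS3, the retinal reductase, fell on differentiation with every treatment, and fell furthest without virus. In embryoid bodies it read 6.46 and 6.83 with the KBTBD8 shRNA, 6.75, 6.58 and 6.69 with the control shRNA, and 5.50, 5.41 and 4.98 without virus. In pluripotent cells it read 7.93 and 7.83 with the KBTBD8 shRNA, 7.72, 7.87 and 8.06 with the control shRNA, and 8.38, 7.79 and 7.74 without virus. The pluripotent arrays overlap across all treatments, and the embryoid bodies form an untransduced group below both virus-treated groups. Untransduced embryoid bodies lay at the 35.3 to 43.2 percentile of the array, around the filter on low values. Differences of DHRS3 against this group therefore involve a low signal.

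On the log2 scale DHRS3 fell by 1.23 ± 0.20 with the KBTBD8 shRNA (2.35-fold lower, limma adjusted p 0.00015) and by 1.21 ± 0.17 with the control shRNA (2.31-fold lower, adjusted p 1.6e-05). Without virus it fell by 2.67 ± 0.17 (adjusted p 1.5e-09). The difference between the control shRNA and no virus in this change was 1.46 ± 0.23 (adjusted p 0.00037), and that between the 2 shRNAs was -0.02 (adjusted p 0.97), or 0.86 with all 18 arrays as labelled (adjusted p 0.37).

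STRA6, the retinol uptake receptor, was highest in embryoid bodies with the control shRNA. Its log2 intensity in embryoid bodies was 7.36 and 7.35 with the KBTBD8 shRNA, 8.35, 8.40 and 8.51 with the control shRNA, and 7.13, 7.19 and 7.23 without virus. In pluripotent cells it was 7.05 and 6.96 with the KBTBD8 shRNA, 6.94, 6.83 and 7.01 with the control shRNA, and 6.39, 6.67 and 6.73 without virus. The control shRNA embryoid bodies lie more than a log2 unit above all pluripotent arrays, while the other embryoid bodies lie just above the pluripotent cells of the same treatment.

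The rise of STRA6 on differentiation was 0.35 ± 0.11 with the KBTBD8 shRNA (1.28-fold, limma adjusted p 0.02), 1.49 ± 0.09 with the control shRNA (2.80-fold, adjusted p 1.8e-09) and 0.59 ± 0.09 without virus (1.5-fold, adjusted p 4.8e-05). The first of these calls rests on single arrays: the adjusted p was 0.078 without the KBTBD8 shRNA embryoid body array 1 (0.35), 0.068 without array 3 of that group (0.35), and 0.12 without the KBTBD8 shRNA pluripotent array 3 (0.31). The rise was smaller with the KBTBD8 than with the control shRNA by a difference of -1.14 ± 0.14 (adjusted p 0.00012), or -1.40 with all 18 arrays as labelled (adjusted p 0.001), and larger with the control shRNA than without virus by 0.90 ± 0.13 (adjusted p 0.00013).

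CRABP2, the carrier of retinoic acid, rose on differentiation with every treatment and had the most graded pluripotent levels. In embryoid bodies it read 10.27 and 10.49 with the KBTBD8 shRNA, 11.02, 11.17 and 10.99 with the control shRNA, and 10.33, 10.24 and 10.16 without virus. In pluripotent cells it read 7.17 and 7.40 with the KBTBD8 shRNA, 8.15, 8.11 and 8.37 with the control shRNA, and 8.92, 9.24 and 9.5 without virus. The pluripotent groups do not overlap, with the KBTBD8 shRNA lowest, the control shRNA next and untransduced cells highest, whereas KBTBD8 shRNA and untransduced embryoid bodies overlap.

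CRABP2 rose by 3.10 ± 0.16 with the KBTBD8 shRNA (8.57-fold, limma adjusted p 3.8e-10), by 2.85 ± 0.13 with the control shRNA (7.22-fold, adjusted p 4.9e-11) and by 1.02 ± 0.13 without virus (2.03-fold, adjusted p 5.1e-06). The rise with the control shRNA exceeded that without virus by 1.83 ± 0.18 (adjusted p 2.8e-06). Between the shRNAs it differed by 0.25 (adjusted p 0.50), and this difference turned to -1.74 with all 18 arrays as labelled (adjusted p 0.37).

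NR2F1, an orphan nuclear receptor also called COUP-TFI, showed the largest separation between the shRNAs among these genes. In embryoid bodies its log2 intensity was 6.75 and 6.46 with the KBTBD8 shRNA, 8.84, 9.26 and 9.21 with the control shRNA, and 9.05, 8.89 and 9.02 without virus. In pluripotent cells it was 5.65 and 5.83 with the KBTBD8 shRNA, 5.82, 5.68 and 6.03 with the control shRNA, and 5.80, 5.86 and 6.34 without virus. Control shRNA and untransduced embryoid bodies overlap at a high level, the KBTBD8 shRNA embryoid bodies lie far below both, and the pluripotent groups overlap.

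NR2F1 rose by 0.86 ± 0.18 with the KBTBD8 shRNA (1.82-fold, limma adjusted p 0.0012), by 3.26 ± 0.15 with the control shRNA (9.61-fold, adjusted p 5.1e-11) and by 2.99 ± 0.15 without virus (7.92-fold, adjusted p 8.5e-11). The rise was smaller with the KBTBD8 than with the control shRNA by a difference of -2.40 ± 0.23 (adjusted p 9.6e-06), or -2.95 with all 18 arrays as labelled (adjusted p 0.0004). No difference was shown between the control shRNA and no virus (0.28, adjusted p 0.41).

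RARB, the receptor gene with the repeat shown above, stayed between the 20.0 and 32.6 percentile on all arrays and was not tested. In embryoid bodies it read 5.08 and 4.90 with the KBTBD8 shRNA, 4.50, 4.67 and 4.17 with the control shRNA, and 4.89, 4.43 and 4.43 without virus. In pluripotent cells it read 4.35 and 4.38 with the KBTBD8 shRNA, 4.75, 4.35 and 4.35 with the control shRNA, and 4.37, 4.26 and 4.40 without virus. These low groups overlap, except that the KBTBD8 shRNA embryoid bodies lie just above every other array fitted. When no filter was applied, RARB differed between the states with the KBTBD8 shRNA (0.63, adjusted p 0.015), and its difference between the shRNAs in embryoid bodies was 0.54 (adjusted p 0.090).

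**Figure D2:**
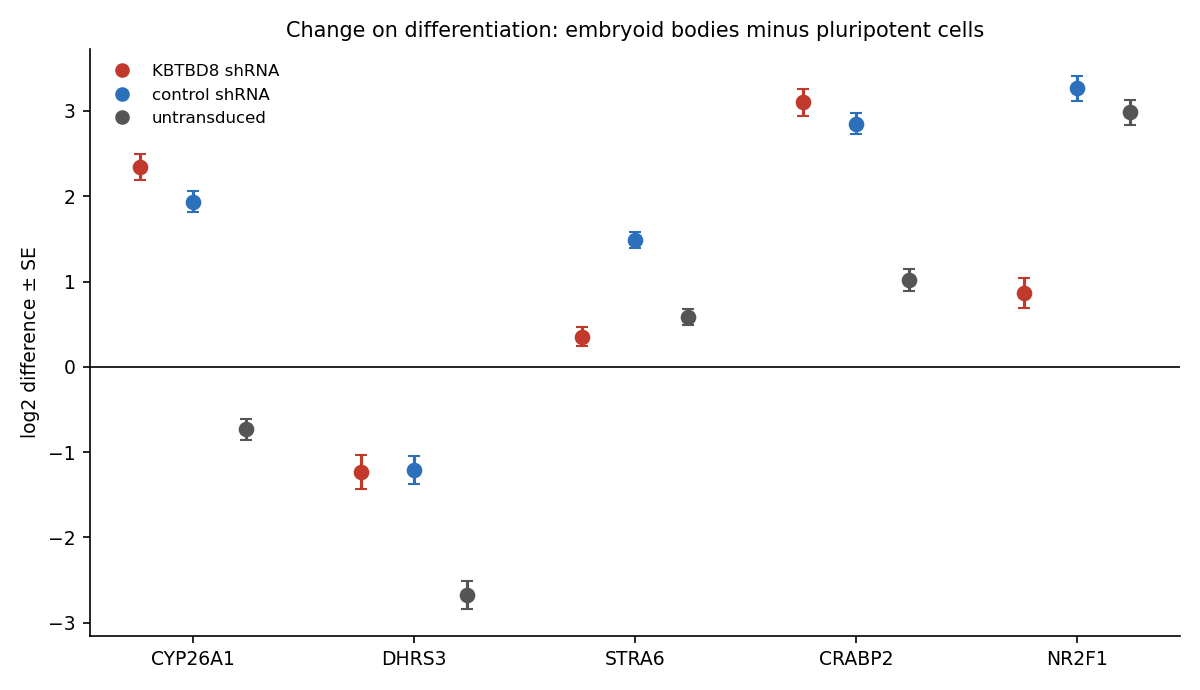
Change on differentiation, embryoid bodies minus pluripotent cells, on the log2 scale for 5 genes and 3 treatments (points: limma difference; bars: SE; filled: adjusted p under 0.05). CYP26A1 is positive with both shRNAs (2.34 and 1.93) and negative without virus (-0.73), and NR2F1 is lowest with the KBTBD8 shRNA (0.86).

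All 5 tested genes passed the threshold on differentiation with each treatment. With the KBTBD8 shRNA 4 were higher and 1 lower, with a median of 0.86 against 0.00 over all genes, where 38.5% of genes passed, 17.3% as higher and 21.1% as lower. With the control shRNA 4 were higher and 1 lower, with a median of 1.93 against -0.02, where 48.3% of genes passed, 23.1% as higher and 25.2% as lower. Without virus 3 were higher and 2 lower, with a median of 0.59 against -0.04, where 52.2% of genes passed, 25.8% as higher and 26.3% as lower. These backgrounds are high, so a call alone says little about these genes, and the sizes and directions carry the description. Of the differences of differentiation, that between the control shRNA and no virus was higher for 4 genes and lower for none, where 16.9% of all genes passed (8.26% as higher, 8.61% as lower). That between the shRNAs was lower for 2 genes and higher for none, where 9.87% of all genes passed (3.74% as higher, 6.12% as lower).

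Some of these calls rest on reading the 2 arrays apart. With all 18 arrays as labelled, the differences on differentiation with the KBTBD8 shRNA were 1.02 for CYP26A1, -0.35 for DHRS3, 0.09 for STRA6, 1.11 for CRABP2 and 0.32 for NR2F1, with limma adjusted p of 0.79 to 0.89, and no gene passed. The same fit, whose shared spread includes both arrays, left CYP26A1 (-0.73, adjusted p 0.26) and CRABP2 (1.02, adjusted p 0.29) short of the threshold without virus. It also left DHRS3 (1.46, adjusted p 0.13) and CRABP2 (1.83, adjusted p 0.40) short of it for the difference between the control shRNA and no virus.

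The shRNA against KBTBD8 was then compared with the control shRNA within each state, to ask how its knockdown relates to these genes. In embryoid bodies 4 of the 5 genes passed the threshold, against 5.8% of all genes (2.84% as higher, 2.96% as lower). CYP26A1 was higher and STRA6, CRABP2 and NR2F1 were lower, and the median over the 5 was -0.68 against 0.00 over all genes. NR2F1 differed by -2.50 ± 0.16 (5.65-fold lower, limma adjusted p 7.6e-08), STRA6 by -1.06 ± 0.10 (2.08-fold lower, adjusted p 4.7e-06) and CRABP2 by -0.68 ± 0.14 (1.60-fold lower, adjusted p 0.0071). CYP26A1 differed by 0.96 ± 0.14 (1.94-fold higher, adjusted p 0.0003). DHRS3 did not pass (-0.03, 95% interval -0.42 to 0.36, adjusted p 0.97).

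The call on CRABP2 was lost without the KBTBD8 shRNA embryoid body array 1 (-0.57, adjusted p 0.13). In the fit of all 18 arrays as labelled NR2F1 (-2.70, limma adjusted p 1.4e-05) and STRA6 (-1.24, adjusted p 6.1e-05) passed, and CYP26A1 (0.23, adjusted p 0.89) and CRABP2 (-1.68, adjusted p 0.33) did not.

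In pluripotent cells 2 of the 5 genes passed, against 14.0% of all genes (8.43% as higher, 5.58% as lower), with a median of 0.00 against -0.01. CRABP2 was lower by -0.93 ± 0.14 (1.90-fold, limma adjusted p 0.00054), and CYP26A1 was higher by 0.54 ± 0.14 (adjusted p 0.015). The CYP26A1 call was lost without the control shRNA pluripotent array 3 (0.44, adjusted p 0.059), without the KBTBD8 shRNA pluripotent array 3 (0.42, adjusted p 0.19), and when only these groups were fitted (adjusted p 0.065). DHRS3 (adjusted p 0.99), STRA6 (0.08, adjusted p 0.67) and NR2F1 (-0.10, 95% interval -0.45 to 0.25, adjusted p 0.75) did not pass. With all 18 arrays as labelled CRABP2 was at 0.06 (adjusted p 0.98) and CYP26A1 at 1.14 (adjusted p 0.22).

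Cell type markers moved with these differences in embryoid bodies. All 7 neural crest markers were lower with the KBTBD8 than with the control shRNA, and their summed log2 level was 50.89 to 52.21 against 64.61 to 65.5. Of 6 endoderm and yolk sac markers 4 were lower, with sums of 32.32 to 33.77 against 41.73 to 42.43, and AFP, APOA2 and TTR were not above the 40th percentile of the array with the KBTBD8 shRNA. Of 6 surface ectoderm markers 5 were higher (56.67 to 57.63 against 53.02 to 53.62), and of 8 forebrain markers 4 were higher and 2 lower (64.57 to 65.92 against 60.33 to 61.09). The surface ectoderm list was also high in pluripotent cells, at 54.45 to 55.08 with the KBTBD8 shRNA and 54.5 to 55.36 with the control shRNA. Its sum therefore does not tell surface ectoderm from pluripotent cells. Of 10 pluripotent markers 4 were higher and 0 lower (90.1 to 90.89 against 86.59 to 86.93), and of 5 tested mesoderm markers 2 were lower, with sums over all 6 measured of 33.52 to 34.96 against 37.29 to 37.83. In pluripotent cells 5 of 6 endoderm markers were lower with the KBTBD8 than with the control shRNA (33.02 to 33.24 against 37.05 to 38.36), AFP, APOA2, SOX17 and TTR were not above the 40th percentile with the KBTBD8 shRNA, and the other lists had 0 to 2 members lower and 0 to 1 higher. AFP and TTR passed the filter on low values only through the control shRNA groups. MEF2C, a mesoderm marker, passed it only through control shRNA embryoid bodies. On the other arrays fitted AFP lay at no more than the 35.2 percentile, TTR at 39.3 and MEF2C at 38.4. Their place in these counts is therefore a description. Over all genes 5.8% passed between the shRNAs in embryoid bodies and 14.0% in pluripotent cells. The part of these markers in the retinoid gene differences was not tested.

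The control shRNA was also compared with untransduced cells, since both serve as controls. In embryoid bodies 4 of 5 genes passed, all of them higher with the control shRNA, where 44.8% of all genes passed (24.6% as higher, 20.2% as lower), and the median over the 5 was 1.23 against 0.04. CYP26A1 was higher by 2.45 ± 0.12 (limma adjusted p 4.5e-10), DHRS3 by 1.38 ± 0.17 (adjusted p 8.3e-06), STRA6 by 1.23 ± 0.09 (2.35-fold, adjusted p 3.6e-08) and CRABP2 by 0.82 ± 0.13 (1.76-fold, adjusted p 0.0001). NR2F1 did not pass (0.12, 95% interval -0.19 to 0.43, adjusted p 0.54). CRABP2 no longer passed with all 18 arrays in the fit (adjusted p 0.44).

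In pluripotent cells 2 of 5 genes passed, against 29.1% of all genes (17.0% as higher, 12.1% as lower), with a median of -0.16 against 0.04. CRABP2 was lower with the control shRNA by -1.01 ± 0.13 (2.02-fold, limma adjusted p 7.7e-05) and STRA6 was higher by 0.33 ± 0.09 (adjusted p 0.013). The STRA6 call was lost without the untransduced pluripotent array 1 (0.23, adjusted p 0.053), without the control shRNA pluripotent array 3 (0.29, adjusted p 0.055) and after quantile normalization (0.24, adjusted p 0.056). CYP26A1 (-0.22, adjusted p 0.20) passed only without the control shRNA pluripotent array 1 (-0.35, adjusted p 0.042) and after quantile normalization (-0.35, adjusted p 0.034). Neither CRABP2 (adjusted p 0.41) nor STRA6 (adjusted p 0.13) passed with all 18 arrays in the fit.

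Virus-treated and untransduced arrays also differ in overall level and in marker content. Array medians were 5.97 to 6.12 with either shRNA and 5.85 to 5.95 without virus. After quantile normalization the 4 embryoid body differences were 2.31 for CYP26A1, 1.20 for DHRS3, 1.21 for STRA6 and 0.88 for CRABP2. In control shRNA embryoid bodies all 7 crest markers, 5 of 6 endoderm markers and all 6 surface ectoderm markers were higher than without virus, while 6 of 8 forebrain markers were lower and 1 higher. Over all genes 44.8% passed in this comparison (24.6% as higher, 20.2% as lower). All 5 tested mesoderm markers were higher too, with sums of 37.29 to 37.83 against 31.35 to 31.89, and of 10 pluripotent markers 6 were higher and 2 lower (86.59 to 86.93 against 79.33 to 80.49). Summed levels were 64.61 to 65.5 against 39.47 to 40.55 for crest, 41.73 to 42.43 against 29.72 to 30.49 for endoderm, 53.02 to 53.62 against 40.08 to 42.99 for surface ectoderm, and 60.33 to 61.09 against 68.65 to 69.41 for forebrain. The surface ectoderm sum was also 54.5 to 55.36 in control shRNA and 53.06 to 53.68 in untransduced pluripotent cells, so it does not tell the 2 cell types apart. In pluripotent cells all 6 endoderm markers were higher with the control shRNA than without virus (37.05 to 38.36 against 30.92 to 31.54), as were 4 of 10 pluripotent, 3 of 6 surface ectoderm, 2 of 7 crest and 1 of 5 mesoderm markers, and 1 pluripotent and 1 forebrain marker were lower. There 29.1% of all genes passed (17.0% as higher, 12.1% as lower), and the crest and mesoderm counts lie near that share. The endoderm counts of both states include AFP and TTR, and the embryoid body mesoderm count includes MEF2C. These genes passed the filter on low values only through control shRNA arrays, so their place in the counts is a description. The part of the markers in the retinoid gene differences was not tested.

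**Figure D3:**
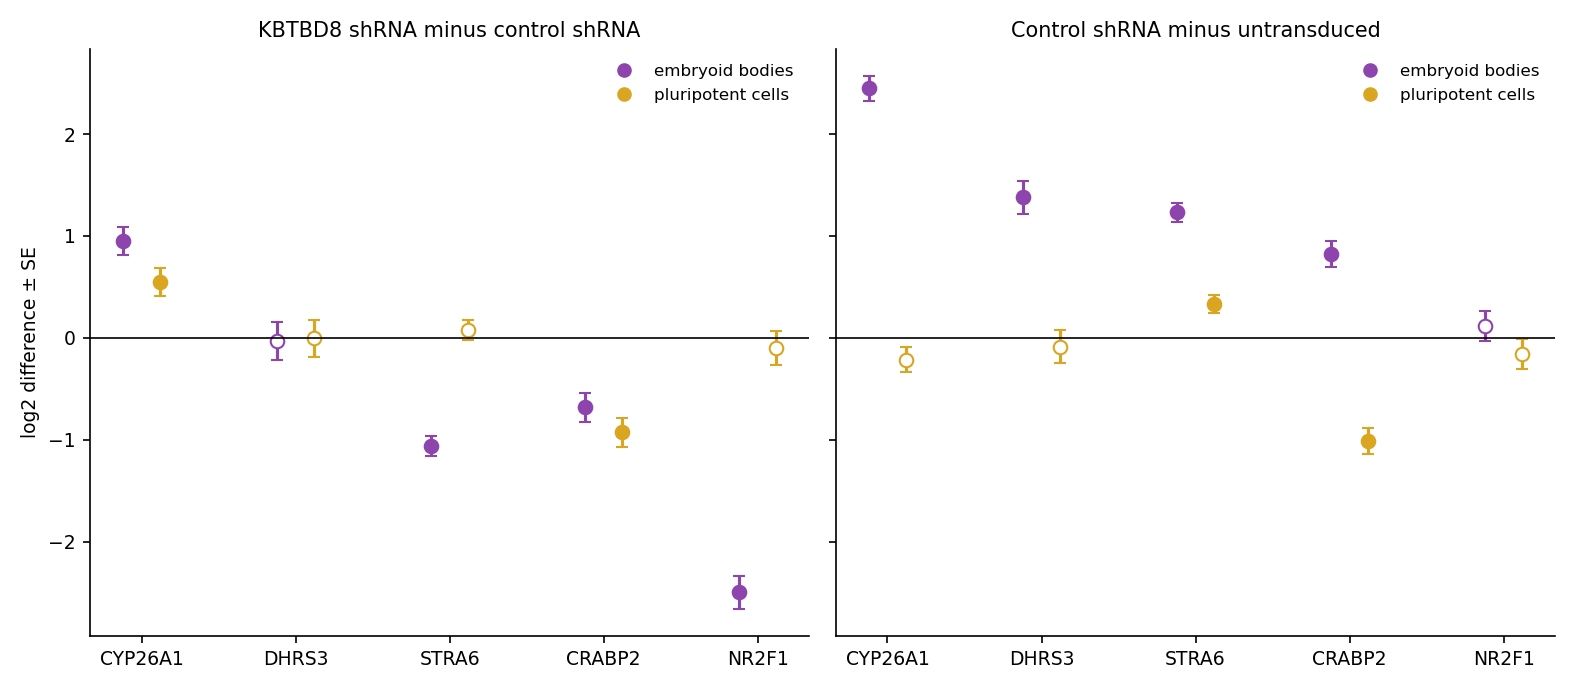
Log2 difference between treatments for 5 genes in embryoid bodies and pluripotent cells (left: KBTBD8 minus control shRNA; right: control shRNA minus untransduced; bars: SE; filled: adjusted p under 0.05, open: not). In embryoid bodies NR2F1 is at -2.50 on the left and 0.12 on the right, and CYP26A1 is at 0.96 and 2.45.

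The KBTBD8 shRNA set directly against no virus separates the genes further. In embryoid bodies NR2F1 was lower by -2.38 (limma adjusted p 3e-08), CYP26A1 was higher by 3.40 (adjusted p 1e-10) and DHRS3 was higher by 1.35 (adjusted p 4.1e-05). STRA6 (0.17, adjusted p 0.18) and CRABP2 (0.14, adjusted p 0.45) did not pass. In pluripotent cells CRABP2 was lower by -1.94 (adjusted p 4.6e-07) and STRA6 higher by 0.41 (adjusted p 0.0076). With all 18 arrays as labelled the differences in embryoid bodies were -2.58 for NR2F1, 2.68 for CYP26A1 and 1.77 for DHRS3, and in pluripotent cells -0.95 for CRABP2 and 0.49 for STRA6, without a test. These comparisons share the KBTBD8 shRNA arrays with those against the control shRNA.

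The order of the 6 groups therefore differed between genes. Neighbours were picked by sorting the observed means of the same arrays, so their p-values only describe the order. For NR2F1 control shRNA and untransduced embryoid bodies came first without a difference beyond their spread, then KBTBD8 shRNA embryoid bodies, and then the pluripotent groups, whose neighbours did not differ. For CYP26A1 the order was KBTBD8 shRNA embryoid bodies, control shRNA embryoid bodies, the 3 pluripotent groups with no difference between neighbours, and untransduced embryoid bodies last (0.52 below the nearest group, limma adjusted p 0.0017). For DHRS3 the 3 pluripotent groups led, followed by both virus-treated embryoid body groups, which did not differ, and then untransduced embryoid bodies.

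STRA6 was highest in control shRNA embryoid bodies. The KBTBD8 shRNA embryoid bodies, untransduced embryoid bodies, KBTBD8 shRNA and control shRNA pluripotent cells followed without a difference between neighbours, and untransduced pluripotent cells were lowest. CRABP2 separated all neighbours except KBTBD8 shRNA and untransduced embryoid bodies, with KBTBD8 shRNA pluripotent cells lowest.

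Other genes of the pathway were read from 5 lists with 51 genes, of which 41 had a probe set of their own and 30 were tested. They split between directions in every comparison. On differentiation 8 were higher and 9 lower with the KBTBD8 shRNA (median 0.08), where 38.5% of all genes passed, 10 and 8 with the control shRNA (median 0.05), where 48.3% passed, and 12 and 10 without virus (median -0.01), where 52.2% passed. Between the shRNAs in embryoid bodies 3 were higher and 4 lower (median 0.01), against 5.8% of all genes, and 4 and 1 in pluripotent cells (median -0.05), against 14.0%. Between the control shRNA and no virus 12 were higher and 8 lower in embryoid bodies (median 0.16), against 44.8% of all genes, and 7 and 2 in pluripotent cells (median 0.10), against 29.1%. No gene of the lists passed with all 18 arrays as labelled on differentiation with the KBTBD8 shRNA, where 0 of all genes passed. In that fit 0 were higher and 4 lower between the shRNAs in embryoid bodies, where TTR, BCO1, NRIP1 and MEIS1 passed against 2.48% of all genes, and 1 was higher and 1 lower in pluripotent cells, where NRIP1 and TTR passed against 5.13%. BCO1 stands in these counts although it passed the filter on low values only through the control shRNA embryoid bodies. TTR stands in them although it passed only through the control shRNA groups of both states. The calls on both genes are therefore a description.

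Among the 4 tested genes of retinol uptake, binding and storage, LRAT, which esterifies retinol for storage, fell on differentiation with every treatment. Its log2 difference was -1.74 with the KBTBD8 shRNA (limma adjusted p 8.3e-08), -2.52 with the control shRNA (adjusted p 5.9e-11) and -3.24 without virus (adjusted p 1.9e-12). RBP7, a retinol-binding protein, fell alongside it, with differences of -0.85, -0.59 and -0.86 in the same order. In embryoid bodies LRAT was higher with the KBTBD8 than with the control shRNA by 1.19 (adjusted p 1.5e-05).

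TTR, a plasma carrier of the retinol-binding protein complex, also counts among the endoderm markers above. With the control shRNA it lay at the 77.2 to 80.4 percentile in embryoid bodies and the 54.1 to 65.9 percentile in pluripotent cells. On the other arrays fitted it lay at no more than the 39.3 percentile. Because the filter kept TTR through the control shRNA groups, its levels are a description. In embryoid bodies TTR averaged 5.37 ± 0.18 with the KBTBD8 shRNA (SD, n = 2), 7.97 ± 0.14 with the control shRNA (n = 3) and 5.03 ± 0.13 without virus (n = 3). In pluripotent cells it averaged 5.27 ± 0.05, 6.62 ± 0.35 and 5.07 ± 0.18 in the same order.

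Of 8 tested genes on the list of retinol and retinal oxidation, which also holds the carotene-cleaving enzyme BCO1 and the retinol saturase RETSAT, RDH10 and RDH11, both retinol dehydrogenases, fell on differentiation with every treatment. RDH10 differed by -0.93 with the KBTBD8 shRNA, -0.80 with the control shRNA and -0.64 without virus, and RDH11 by -0.79, -1.08 and -1.0 (limma adjusted p 2.3e-05 or lower in each). ALDH1A2 is the retinal dehydrogenase that makes most retinoic acid in early embryos. It rose by 0.65 with the KBTBD8 shRNA (adjusted p 0.00043) and by 0.55 without virus (adjusted p 0.00018). With the control shRNA it was at 0.05 (adjusted p 0.72). These are low signals. ALDH1A2 lay at the 30.8 to 36.8 percentile in pluripotent cells, under the filter on low values. In embryoid bodies it reached only the 43.2 to 43.6 percentile with the KBTBD8 shRNA and the 42.1 to 44.6 percentile without virus. ALDH1A1, another retinal dehydrogenase, was above the filter on all fitted arrays of 1 group only, the KBTBD8 shRNA pluripotent cells (50.7 to 53.6 percentile). Its levels are therefore a description. With the KBTBD8 shRNA it averaged 5.17 in embryoid bodies, at the 32.0 to 37.7 percentile, and 6.14 in pluripotent cells. In the same order it averaged 5.35 and 5.27 with the control shRNA, and 5.38 and 5.01 without virus.

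BCO1, which cleaves beta-carotene into retinal, was at the 44.7 to 52.6 percentile of the array in control shRNA embryoid bodies and at no more than the 32.6 percentile in every other group. Because the filter kept BCO1 through that group alone, its levels are a description. In embryoid bodies BCO1 averaged 4.25 ± 0.05 with the KBTBD8 shRNA (SD, n = 2), 5.98 ± 0.24 with the control shRNA (n = 3) and 4.56 ± 0.30 without virus (n = 3). ALDH1A2 was higher with the KBTBD8 than with the control shRNA in embryoid bodies by 0.54 (limma adjusted p 0.0053), a call that was lost without the KBTBD8 shRNA embryoid body array 1 (0.49, adjusted p 0.083). For ALDH1A2 the control shRNA embryoid bodies lay at the 33.3 to 36.6 percentile, under the filter on low values. In pluripotent cells ALDH1A1 averaged 6.14 ± 0.08 with the KBTBD8 shRNA (SD, n = 2). With the control shRNA it averaged 5.27 ± 0.06 (n = 3), at the 36.2 to 37.3 percentile.

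CYP26C1, the 1 other degrading enzyme tested, was higher with the KBTBD8 than with the control shRNA in embryoid bodies by 0.46 (limma adjusted p 0.038). It rose on differentiation with the KBTBD8 shRNA by 0.81 (adjusted p 0.00021). The difference between the shRNAs lost its call under several alternatives, at 0.27 without the KBTBD8 shRNA embryoid body array 3 (adjusted p 0.39), at 0.41 without the control shRNA embryoid body array 1 (adjusted p 0.14) and at 0.46 without array 3 of that group (adjusted p 0.10), with no filter (adjusted p 0.058) and with only these groups (adjusted p 0.084). It was at 0.050 to 0.052 in adjusted p without the untransduced array 3 of either state or the control shRNA pluripotent array 2.

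Among 8 receptors and cofactors tested, RXRA, a partner of the retinoic acid receptors, rose on differentiation by 0.93 with the KBTBD8 shRNA, 0.36 with the control shRNA and 0.65 without virus (limma adjusted p 0.017 or lower in each). The middle value lost its call without the control shRNA pluripotent array 1 (0.30, adjusted p 0.070), embryoid body array 2 (0.29, adjusted p 0.080) or embryoid body array 3 (0.34, adjusted p 0.054). RARG, a retinoic acid receptor, fell by 1.29 without virus (adjusted p 5.1e-08), and was higher with the control shRNA than without virus in embryoid bodies by 1.24 (adjusted p 2.3e-07). NRIP1, a nuclear receptor corepressor, rose by 2.11 with the control shRNA (adjusted p 7.3e-10) and by 2.65 without virus (adjusted p 2.8e-11), and was at 0.15 with the KBTBD8 shRNA (adjusted p 0.46). Its rise was smaller with the KBTBD8 than with the control shRNA by a difference of -1.96 (adjusted p 9e-06).

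Of 9 tested genes known to respond to retinoic acid, MEIS1 and MEIS2, homeobox genes of the hindbrain and limb, rose with every treatment. MEIS1 rose by 0.97 with the KBTBD8 shRNA, 1.41 with the control shRNA and 4.23 without virus, and MEIS2 by 2.37, 2.37 and 3.72 (limma adjusted p 5.1e-05 or lower in each). In pluripotent cells MEIS1 lay at the 20.5 to 28.3 percentile of the array and MEIS2 at the 25.6 to 32.4 percentile. Both ranges lie under the filter on low values. In KBTBD8 shRNA embryoid bodies MEIS1 lay only at the 31.4 to 41.1 percentile, so its rise of 0.97 compares low signals. MEIS1 was lower with the control shRNA than without virus in embryoid bodies by -2.45 (adjusted p 2.7e-10), and lower with the KBTBD8 than with the control shRNA by -0.82 (adjusted p 0.00074). RARRES2, which encodes the chemokine chemerin, differed by -2.67, -2.91 and -5.30 in the same order and so fell with each treatment. BHLHE40, a transcriptional repressor, rose by 2.58, 2.67 and 0.48. Of the 9 genes, 3 were higher, 1 lower and 5 did not pass with the KBTBD8 shRNA, and 3 were higher, 2 lower and 4 did not pass both with the control shRNA and without virus. Over all genes 38.5% passed with the KBTBD8 shRNA, 48.3% with the control shRNA and 52.2% without virus, so these counts lie near the background. HOXB1, HOXB4, CDX1 and TGM2 passed in none of these 3 comparisons.

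**Figure D4:**
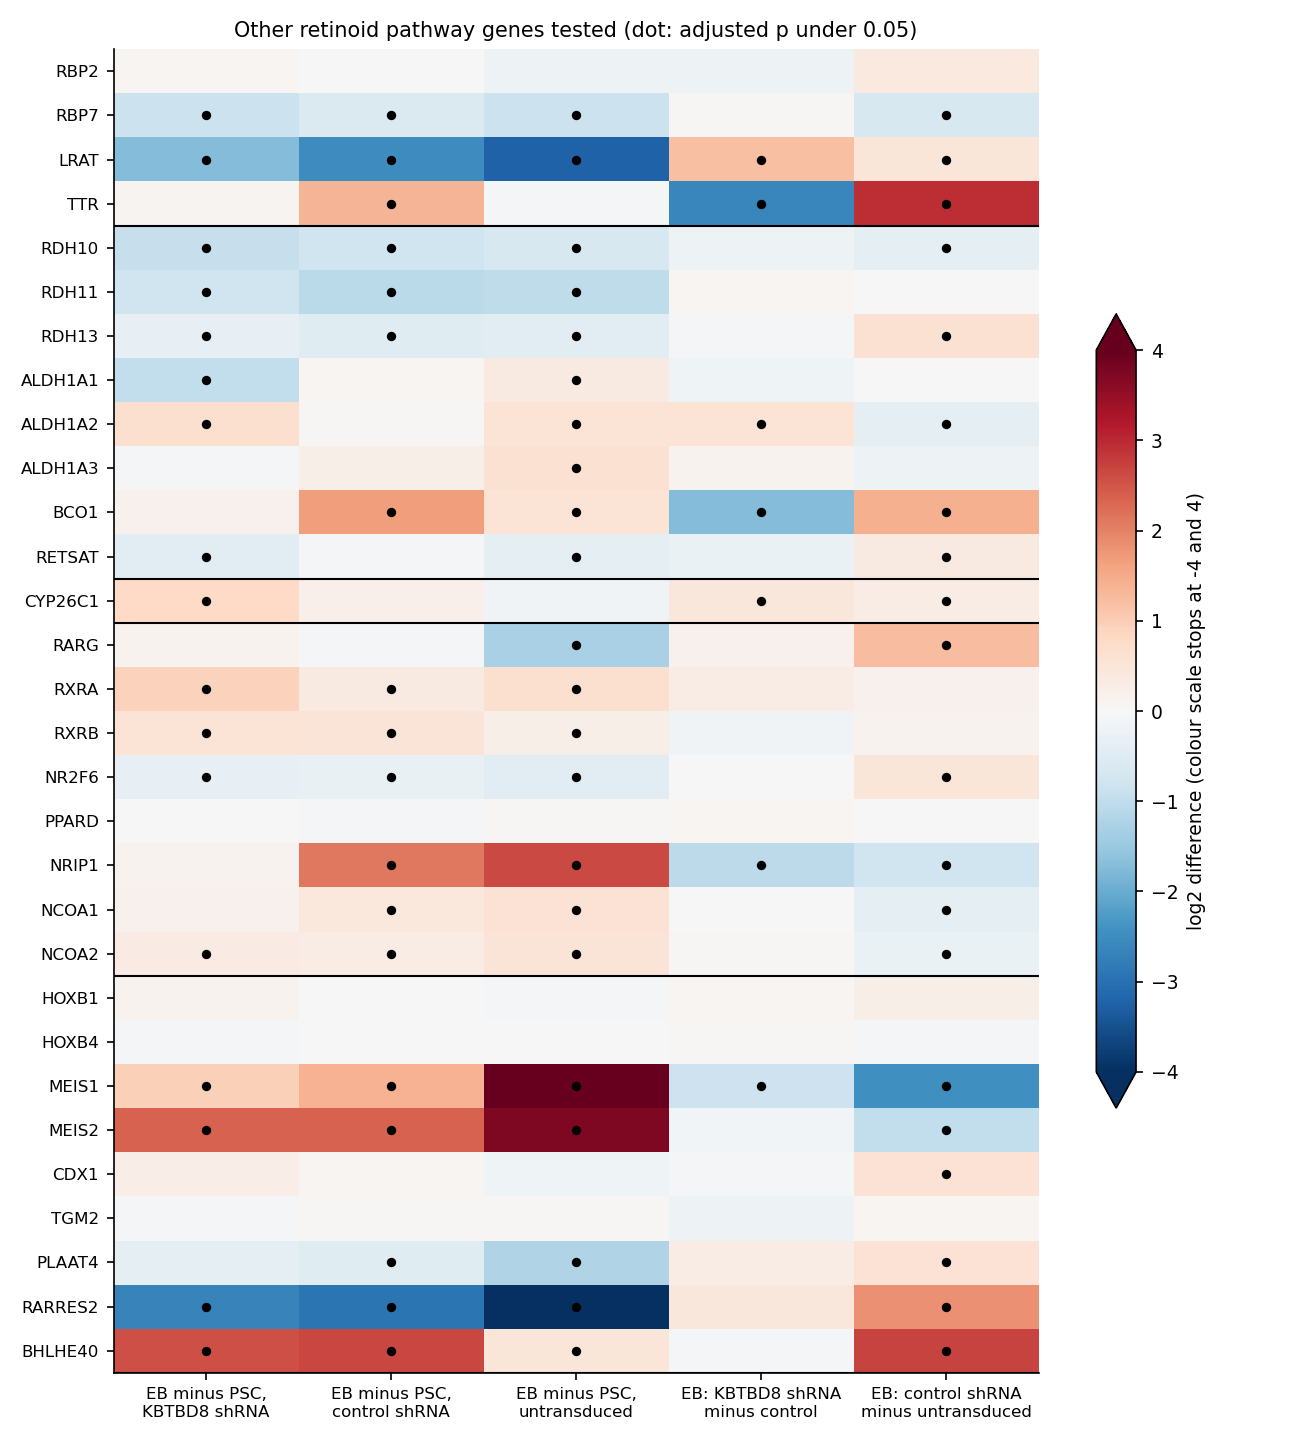
Log2 difference of the 30 other retinoid pathway genes tested in 5 comparisons (EB: embryoid bodies, PSC: pluripotent cells; red: higher, blue: lower; dot: adjusted p under 0.05; lines separate the 5 lists). LRAT is lower in embryoid bodies with every treatment. In embryoid bodies TTR is at -2.60 between the shRNAs and at 2.94 between the control shRNA and no virus. These TTR values are a description, because the filter on low values kept TTR only through the control shRNA groups.

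For each tested gene the 3 genes with the most similar profile were found by Pearson's r over the 16 arrays, which share states and treatments, so r describes the group pattern. NR2F1 was closest to GFRA2 (0.972), RFTN2 (0.963) and RCBTB2 (0.958). CYP26A1 was closest to BNIPL (0.973), SEMA3E (0.967) and TRIM38 (0.964), and DHRS3 to CD9 (0.988), IFI30 (0.985) and CDCP1 (0.983). STRA6 was closest to PDGFRA (0.965), PDE1B (0.962) and SNAI2 (0.959). Of these, PDGFRA is on the mesoderm marker list and SNAI2, a transcription factor, is on the neural crest list. CRABP2 was closest to CACNB3 (0.973), OTX2 (0.970), a homeobox gene of forebrain and midbrain, and EFS (0.970).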

How the data were processed

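The authors deposited log2 intensities that were summarised by GCRMA, as the submitters' processing notes state. No version is given, the log base was taken from the method and the range of the values, and it is not stated whether the 18 arrays were normalized together. Of 33297 probe sets, 19460 carried 1 gene symbol, 1754 several and 12083 none, per the platform annotation. Symbols were updated through RefSeq, where 31 probe sets had no entry. Testing required a signal over the 40th percentile on 3 or more of 18 arrays.

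Group means were fitted with limma 3.58.1 (R 4.3.3) on 16 arrays with 10 residual degrees of freedom. The Benjamini-Hochberg adjustment ran over the 14209 genes within each of 9 comparisons, and an adjusted p under 0.05 counts as passing. It ran in the same way within each of 15 group pairs of the same fit. The pairs gave the p-values of the KBTBD8 shRNA against no virus and of the group order. Alternatives were tested for the 9 comparisons only, and no share over all genes is given for the pairs. The 2 differences of differentiation are interaction terms. The code was tested on simulated data. Values are log2 differences ± SE, and the number of arrays limits the precision. The sets of alternatives were all 18 arrays as labelled, only the groups compared, no filter, quantile normalization, the mean of all probe sets, a replicate block, and each array left out.

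The genes and lists were chosen with earlier results of these data known. All 9 genes and KBTBD8 are named throughout. From each pathway list up to 3 genes past the threshold with the largest change were eligible in each comparison, and an eligible gene could then be followed through the others. Promoter sequences are those of RefSeq on GRCh38.p14.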

Additional observations from a re-analysis of the deposited data

Results flagged for a closer look

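The change on differentiation differed between the control shRNA and no virus for 4 genes, by 2.66 for CYP26A1, 1.46 for DHRS3, 0.90 for STRA6 and 1.83 for CRABP2 on the log2 scale. For CYP26A1 the change also had opposite signs, 1.93 with the control shRNA and -0.73 without virus. In 16.9% of all genes this difference passed the limma threshold.

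The change differed between the KBTBD8 and the control shRNA for NR2F1, by -2.40, and for STRA6, by -1.14. In 9.87% of all genes this difference passed. Groups of 3 arrays or fewer were not tested for single arrays that stand apart.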

How the results depend on the processing

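Over 45 results on the 5 tested genes and all alternatives, 961 of 990 values kept their side of the threshold, 26 lost the call, 2 gained it, and 1 lost the call and turned its sign. Of the 961, 946 kept their sign and 15, which passed in neither fit, changed it, 5 of them with all 18 arrays. The called value that turned was CRABP2 between the shRNAs in pluripotent cells, at 0.064 with all 18 arrays as labelled. With all 18 arrays, the number of genes of the set that passed was 0 on differentiation with the KBTBD8 shRNA, 3 without virus, 2 between the shRNAs in embryoid bodies and 0 in pluripotent cells, 0 between the control shRNA and no virus in pluripotent cells, and 2 for the difference of differentiation between the control shRNA and no virus. That fit holds both arrays that go against their labels. With only the groups compared, 1 gene passed between the shRNAs and 1 between the control shRNA and no virus in pluripotent cells, and the cause was not tested.

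Leaving out 1 array gave 5 to 5 genes on differentiation without virus and with the control shRNA, 4 to 5 with the KBTBD8 shRNA, 1 to 2 between the shRNAs in pluripotent cells and 3 to 4 in embryoid bodies, 1 to 3 between the control shRNA and no virus in pluripotent cells and 4 to 4 in embryoid bodies, and 4 to 4 and 2 to 2 for the differences of differentiation. Where an arm kept 1 array, it was assumed to vary like the other groups.

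Over all genes the count with all 18 arrays was 0 against 5465 on differentiation with the KBTBD8 shRNA, 729 against 1991 between the shRNAs in pluripotent cells and 352 against 824 in embryoid bodies, 1713 against 4132 between the control shRNA and no virus in pluripotent cells (2644 with only the groups compared) and 3850 against 6370 in embryoid bodies, and 744 against 2398 and 521 against 1402 for the differences of differentiation. Leaving out 1 array moved a count over all genes by more than 1.5 times only for the KBTBD8 shRNA. Between the shRNAs it was 1112 without pluripotent array 1 and 724 without array 3, and 496 without embryoid body array 1 and 451 without array 3. For the difference of differentiation between the shRNAs it was 877 without embryoid body array 1 and 738 without pluripotent array 3.

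Arrays with the same replicate number were not paired, with a median correlation of their deviations of 0.027 over 36 pairs. With the replicate number as a block the call of no tested gene of the set changed, NR2F1 on differentiation without virus stayed at 2.99, and CYP26C1 between the shRNAs in embryoid bodies no longer passed (0.47, limma adjusted p 0.066).

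Over 50 results on KBTBD8 and other pathway genes, 1067 of 1100 values kept their side of the threshold and 33 lost the call. Of the 1067, 1063 kept their sign and 4, which passed in neither fit, changed it. With all 18 arrays 20 of these results lost the call.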
